A study of Drosophila melanogaster with 2 samples.

Results

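The genes examined were 10 members of the Wnt pathway of Drosophila melanogaster. They were the ligand genes wg, Wnt4, Wnt6 and Wnt10 and the Frizzled genes fz, fz2 and fz3. The others were the co-receptor gene arr, the response gene nkd and the transcription factor gene pan. The members are 10 of 13968 protein-coding genes. The measurement was chromatin immunoprecipitation sequencing (ChIP-seq) of fd59A, a forkhead transcription factor. Each fly carried an fd59A transgene fused to eGFP at its C-terminal end, and, per the description in the labels, an antibody to GFP pulled down the chromatin. The antibody field of the labels names fd59A instead. The single group was whole prepupae of the strain fd59A-GFP, males and females together. The labels give their age as 24 day, which is longer than flies normally take to reach this stage. It has 2 biological replicates, numbered 2 and 3, which come from 1 transgenic line. The promoter that drives the transgene is not given in the sources used here. Whole animals were used, so the tissue that a peak comes from cannot be told apart. Per the file descriptions the authors called peaks against a control, which is not analysed here, and the samples include no untagged or input library. How far any peak holds signal not due to the tagged protein was therefore not tested, and there is no comparison between conditions.

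The summit of a peak is the base where its signal is highest. A summit was given to a gene if it lay in the gene body, or if that gene's transcription start site (TSS) was the nearest one of any protein-coding gene and at most 10 kb away. The main list was the authors' set of 5327 peaks that passed a threshold on IDR, the irreproducible discovery rate, which asks whether peaks repeat between replicates. The Wnt genes had 43 of its summits. A further list of 29208 regions came from both replicates pooled, and each replicate had its own list, of 28127 regions for replicate 2 and 30000 for replicate 3. The IDR peaks were the 5327 strongest regions of the pooled list. A place in the IDR list therefore does not by itself show that a single peak repeats in each replicate. Signal is the authors' own value for each peak. It is used below only to describe or rank peaks within a list, since the scaling is not stated and each replicate list has its own scale. Rank 1 is the strongest peak of a list. Sequencing depth is unknown.

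Wnt ligands are secreted glycoproteins that bind Frizzled receptors together with the LRP-type co-receptor arrow, the product of arr. In the canonical branch this stabilises the beta-catenin armadillo, which enters the nucleus and joins pangolin, the TCF factor encoded by pan, at target genes. In the larva and prepupa, wingless, the product of wg, patterns the imaginal discs that give rise to the legs, wings and other adult structures. The ligand genes wg, Wnt4, Wnt6 and Wnt10 are neighbours in the genome.

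The sequences that follow are the reference bases under the strongest summits of wg, Wnt6, Wnt10, fz, fz2, fz3 and nkd, shown because they are where the largest signal in each of these genes fell. None is shown for arr. The fz summit at 14297609 and the nkd summit at 19035670 are shown because they hold a forkhead core. Each is 101 bases of the dm6 plus strand centred on the summit, and is headed by its coordinates. Capitals mark a match, on either strand, to 1 of 6 short motifs. These are the forkhead cores GTAAACA and ATAAACA, the homeodomain site TAATTA, the GATA factor sites AGATAA and TGATAA, and the TCF site CTTTGA.
wg, chr2L:7313588-7313688: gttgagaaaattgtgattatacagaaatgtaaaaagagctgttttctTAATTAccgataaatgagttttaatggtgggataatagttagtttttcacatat
Wnt6, chr2L:7333238-7333338: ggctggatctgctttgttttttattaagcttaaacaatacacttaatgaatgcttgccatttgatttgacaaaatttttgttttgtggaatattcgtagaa
Wnt10, chr2L:7358140-7358240: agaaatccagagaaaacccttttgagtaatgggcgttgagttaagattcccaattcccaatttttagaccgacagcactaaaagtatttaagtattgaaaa
fz, chr3L:14272552-14272652: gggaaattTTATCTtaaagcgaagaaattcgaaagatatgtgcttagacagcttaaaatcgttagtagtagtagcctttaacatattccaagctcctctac
fz, chr3L:14364837-14364937: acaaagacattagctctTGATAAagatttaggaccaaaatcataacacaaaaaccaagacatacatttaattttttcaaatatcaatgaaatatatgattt
fz, chr3L:14297559-14297659: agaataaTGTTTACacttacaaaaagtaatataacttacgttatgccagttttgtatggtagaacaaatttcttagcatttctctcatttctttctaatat
fz2, chr3L:19173238-19173338: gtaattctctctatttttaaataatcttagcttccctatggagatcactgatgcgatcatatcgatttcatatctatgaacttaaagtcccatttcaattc
fz2, chr3L:19172538-19172638: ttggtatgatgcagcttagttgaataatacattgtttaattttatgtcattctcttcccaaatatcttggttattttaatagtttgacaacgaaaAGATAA
fz3, chrX:775381-775481: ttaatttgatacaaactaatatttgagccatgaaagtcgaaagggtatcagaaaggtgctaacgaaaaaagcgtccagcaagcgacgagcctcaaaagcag
nkd, chr3L:19042638-19042738: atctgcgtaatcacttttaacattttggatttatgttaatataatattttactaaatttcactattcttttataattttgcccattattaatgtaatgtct
nkd, chr3L:19041769-19041869: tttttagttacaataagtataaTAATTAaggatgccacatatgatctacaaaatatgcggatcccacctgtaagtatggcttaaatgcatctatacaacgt
nkd, chr3L:19035620-19035720: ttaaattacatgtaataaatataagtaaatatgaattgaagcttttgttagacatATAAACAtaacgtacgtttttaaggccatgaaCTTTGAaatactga

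IDR summits were found in 8 of the 10 genes, where 20.7% of all protein-coding genes had at least 1. Among the 2111 genes at least as long as wg, the shortest of the 10, the share was 51.8%. That length limit was chosen after the values had been seen, and the 10 genes were chosen with earlier results of these data known. With the length of each of the other members as the limit, the share was higher, from 56.8% for Wnt10 to 65.7% for fz. The 2 genes with none were Wnt4 and pan. The 43 summits were unevenly spread: fz had 12, fz2 had 11, arr had 7, nkd had 6 and fz3 had 4, while wg, Wnt6 and Wnt10 had 1 each. The receptor, co-receptor and nkd genes thus held 40 of them and the ligand genes 3.

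**Figure D1:**
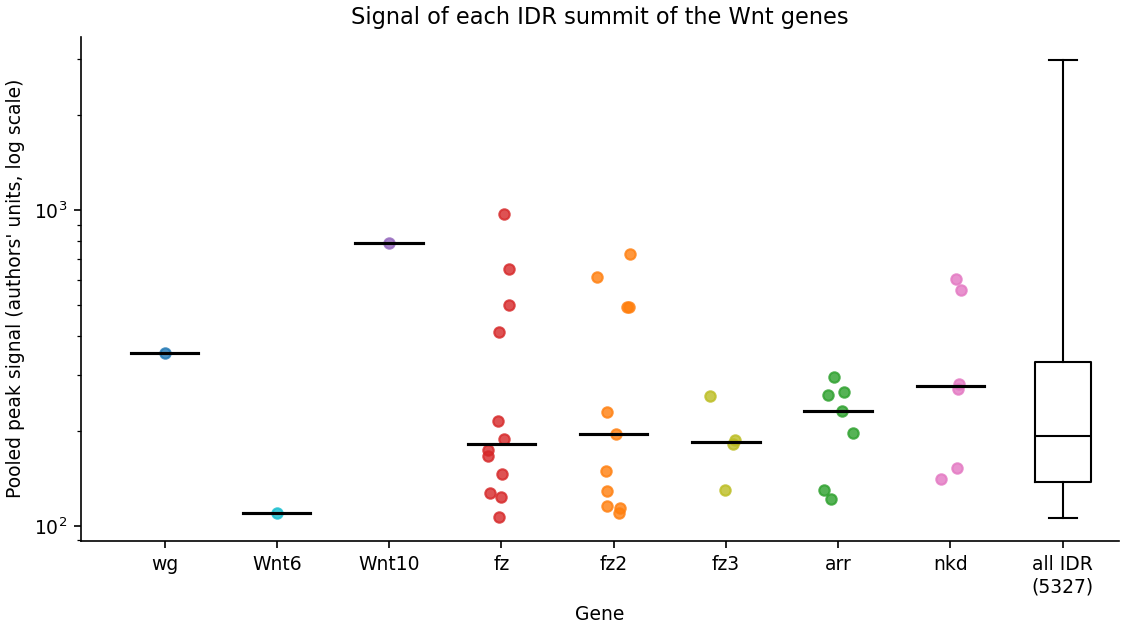
Signal of each IDR summit (authors' units, log scale) for the 8 Wnt genes that have any, with a bar at each gene's median. The box at the right spans the quartiles and full range of all 5327 IDR peaks. The fz, fz2, nkd and Wnt10 summits reach 604 to 974, while those of fz3 and arr reach 257 and 296.

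Of the ligand genes, wg had 1 IDR summit inside its body. The gene (FBgn0284084) lies on 2L from 7307159 to 7316265 on the plus strand and encodes wingless, the founding Drosophila Wnt. The peak ran from 7313549 to 7313744 in the third intron, with its summit 6479 bp downstream of the TSS. Its signal was 353, at rank 1201 of 5327. The peak ranked 1149 in replicate 2, with a signal of 158, and 1233 in replicate 3, with a signal of 198. Both replicate summits lay within 15 bp of the pooled one, so the place and the rank were close in both libraries.

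Wnt10 had the strongest peak of the 4 ligand genes. The gene (FBgn0031903, 2L, 7363379 to 7377528, plus strand) encodes a Wnt ligand. Its peak at 7358045 to 7358371 lay in the intergenic stretch upstream, with the summit 5189 bp before the TSS. The signal of 788 put it at rank 233 of 5327. It ranked 241 in replicate 2 (signal 340.0) and 229 in replicate 3 (signal 452), with summits 10 and 3 bp from the pooled one. This summit lies between Wnt6 and Wnt10, and it went to Wnt10 only because that TSS was nearer.

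Wnt6 had the weakest peak of the 3, and the only one at a ligand gene's promoter. The gene (FBgn0031902) lies on 2L from 7333714 to 7352542 on the plus strand. The peak at 7333076 to 7333499 had its summit 426 bp upstream of the TSS and a signal of 110.1, at rank 5125. It ranked 5402 in replicate 2 (signal 48.2) and 5610 in replicate 3 (signal 57.6), both outside the 5327 strongest regions of that replicate. With the 5327 strongest regions of either replicate alone in place of the IDR list, Wnt6 had no summit.

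Wnt4 had no IDR summit. The gene (FBgn0010453, 2L, 7255419 to 7277171, minus strand) had 11 regions in the pooled list, and their signals ran from 30.1 to 81.0, below the 106.0 at which the IDR list ends. The strongest lay in an intron at pooled rank 7146 and was present in both replicates, with a signal of 39.6 in replicate 2 and 44.5 in replicate 3. Of the 11 regions, 6 had a summit within 100 bp in each replicate. The gene was thus not empty, but held only weak regions.

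The 4 ligand genes span 122.1 kb of 2L, and this stretch with 10 kb on either side held 11 IDR peaks and 51 pooled regions. Only 3 of the 11 went to a gene by the 10 kb limit. The other 8 lay between genes, 10533 to 13590 bp from the nearest protein-coding TSS, with signals from 106.6 to 319, and all 8 had a summit within 100 bp in both replicates. A group of 5 summits lay within 3676 bp of each other between wg and Wnt6, and 3 lay within 5359 bp between Wnt4 and wg. In the first group the strongest had a signal of 319 at rank 1388, and ranked 1178 in replicate 2 and 1640 in replicate 3. Its summit was 14153 bp downstream of the wg TSS and 12402 bp upstream of that of Wnt6. The wg intron peak and these 5 are 6 summits in less than 10 kb. In the second group the strongest had a signal of 158, 11039 bp upstream of wg.

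The limit itself therefore decided how many peaks the ligand genes were credited with. Just outside the limit was a summit 10533 bp from the TSS of Wnt6 with a signal of 251. An nkd summit just inside it, 9779 bp from the TSS with a signal of 141, did not depend on the limit. It lies in the nkd body and so counts at any distance. With a limit of 15 kb, chosen after the data had been seen, wg had 5 summits, Wnt6 had 4 and Wnt4 had 1, and the 10 genes had 51 in all.

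**Figure D2:**
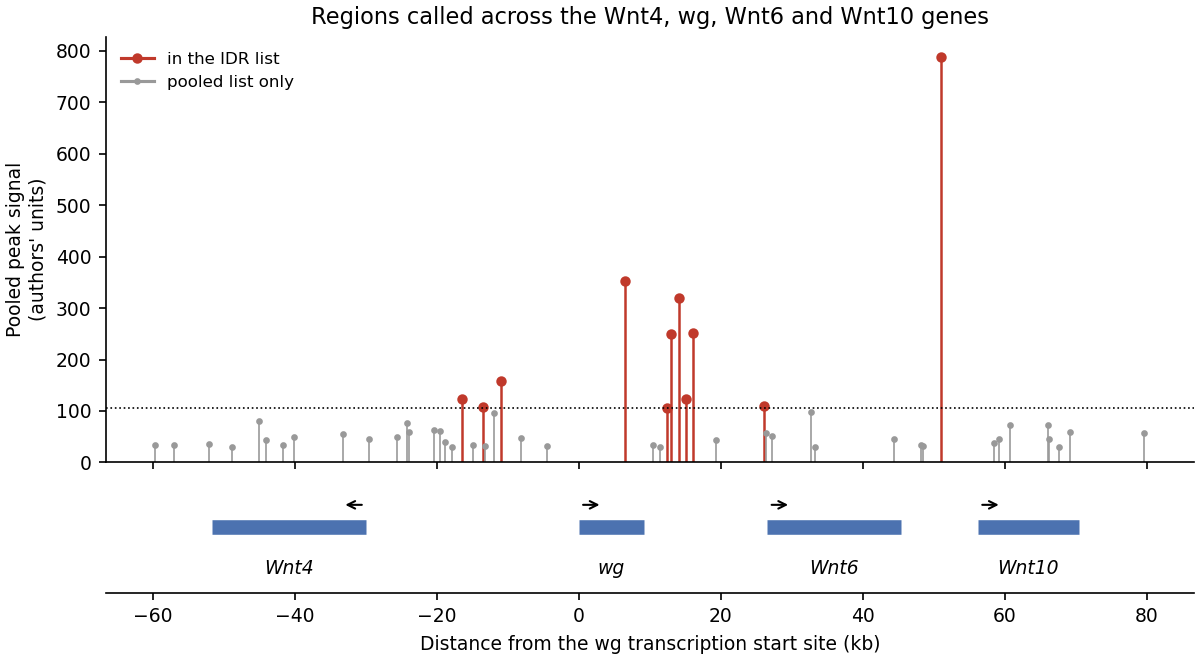
Pooled peak signal (authors' units) against distance from the wg TSS (kb), for all regions called across Wnt4, wg, Wnt6 and Wnt10. Red lines are the 11 IDR peaks, grey lines are regions in the pooled list only, the dotted line is the lowest IDR signal of 106.0, bars are gene bodies and arrows give the direction of transcription. Of the 11 peaks 1 lies inside wg, and the others lie on either side of wg and upstream of Wnt6 and Wnt10, with none inside Wnt4.

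The receptor gene fz had the most summits of the 10 genes and the strongest peak. It encodes frizzled, a seven-pass receptor that acts in Wnt signalling and in planar cell polarity. The gene (FBgn0001085, 3L, 14274343 to 14368639, plus strand) is 94.3 kb long. Its strongest peak, at 14272393 to 14272767, lay upstream of the gene with the summit 1741 bp before the TSS. The signal was 974, at rank 136 of 5327. The peak ranked 196 in replicate 2 (signal 366) and 101 in replicate 3 (signal 603), the best rank of any of the 10 genes in each replicate.

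The other 11 summits of fz lay in introns. The first intron held 2 of them, 23266 and 29729 bp from the TSS, with signals of 167 and 410.4. The fourth intron held the other 9. Among these, 2 were strong: the last summit, 90544 bp from the TSS, had a signal of 651, and the one at 64751 bp had 500.3. In replicate 2 these ranked 347 and 689, and in replicate 3 they ranked 452 and 678. The 7 others of that intron had lower signals. The summits at 47265, 61639 and 75990 bp had 124, 127 and 174. Those at 76704, 78962, 82718 and 88978 bp had 215, 146, 107 and 189. Peaks of fz thus covered a range of signal from near the top of the list to its end, since the one of 107 was the weakest of all 43, at rank 5299.

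Not all of these can be credited to fz without doubt. CG13482 (3L, 14329346 to 14329885) lies inside the fourth intron, and its TSS was nearest to 4 of the summits. CG13481 (3L, 14368925 to 14369707, minus strand) starts beyond the 3' end of fz, and its TSS was nearest to 6. The other 2 had fz as the nearest gene, but 1 of these lay 23266 bp from its TSS. By the nearest TSS within 10 kb alone, fz would keep 1 of its 12, the upstream peak.

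The gene fz2, which encodes a receptor that binds wingless with high affinity, had 11 summits, all in its introns. The gene (FBgn0016797, 3L, 19140975 to 19235373, minus strand) is 94.4 kb long and has 3 start sites in the annotation. The strongest peaks were a neighbouring pair. The one at 19173102 to 19173412 had a signal of 724 and rank 305, and its summit was 2640 bp upstream of the nearest fz2 start site. The one at 19172423 to 19172784 had a signal of 612 and rank 449, 1940 bp upstream of the same site. In replicate 2 they ranked 387 and 435, with signals of 283 and 272.5. In replicate 3 they ranked 268 and 473, with signals of 431 and 347, so the same one was ahead in both libraries. Because fz2 has an earlier start site, both lie within introns of its longer transcripts, 62085 and 62785 bp into the gene.

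A second strong site of fz2 was at 19194102 to 19194377, with a signal of 493, and a further one was at 19159992 to 19160233, with 492. Their summits lay 41173 and 75252 bp from the 5' end of the gene. They ranked 737 and 774 in replicate 2 and 631 and 637 in replicate 3, so their order by signal held in both. The 7 weaker summits had signals from 110.2 to 229. The one of 229 ranked 4451 in replicate 2 and 1510 in replicate 3, a wider gap than for the stronger peaks. No IDR summit lay in the first 40 kb of the gene.

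Peaks of fz2 overlapped each other in 2 places. Their summits were 208 bp apart in the pair with signals of 149.6 and 110.2, and 199 bp apart in the pair with 493 and 195. In replicate 3 each pair was listed as 1 summit that matched only 1 partner. These pairs account for 2 of the 3 fz2 summits that lacked a match in replicate 3. The third had a signal of 115.3 and a replicate 3 summit 123 bp away.

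fz3 had 4 summits in a gene of 14.3 kb (FBgn0027343, X, 769945 to 784222, plus strand). It encodes a Frizzled family member whose own expression responds to wingless signalling. The gene has 3 start sites in the annotation. Its strongest peak, at 775370 to 775501, lay in the first intron, with the summit 2303 bp upstream of the nearest fz3 start site. The signal was 257 at rank 1835, and this peak was 132 bp wide, the narrowest of the 43. It ranked 1659 in replicate 2 (signal 121) and 2013 in replicate 3 (signal 139). A promoter summit 120 bp upstream of the first TSS had a signal of 186. A further intron summit, 9589 bp into the gene and 1800 bp downstream of the nearest fz3 start site, had 182. An intergenic one 1846 bp upstream of the first TSS had 130.2. All 4 had a match in both replicates. Their ranks ran from 1659 to 4689 in replicate 2 and from 2013 to 4348 in replicate 3, so the gene had middling peaks and no strong one.

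**Figure D3:**
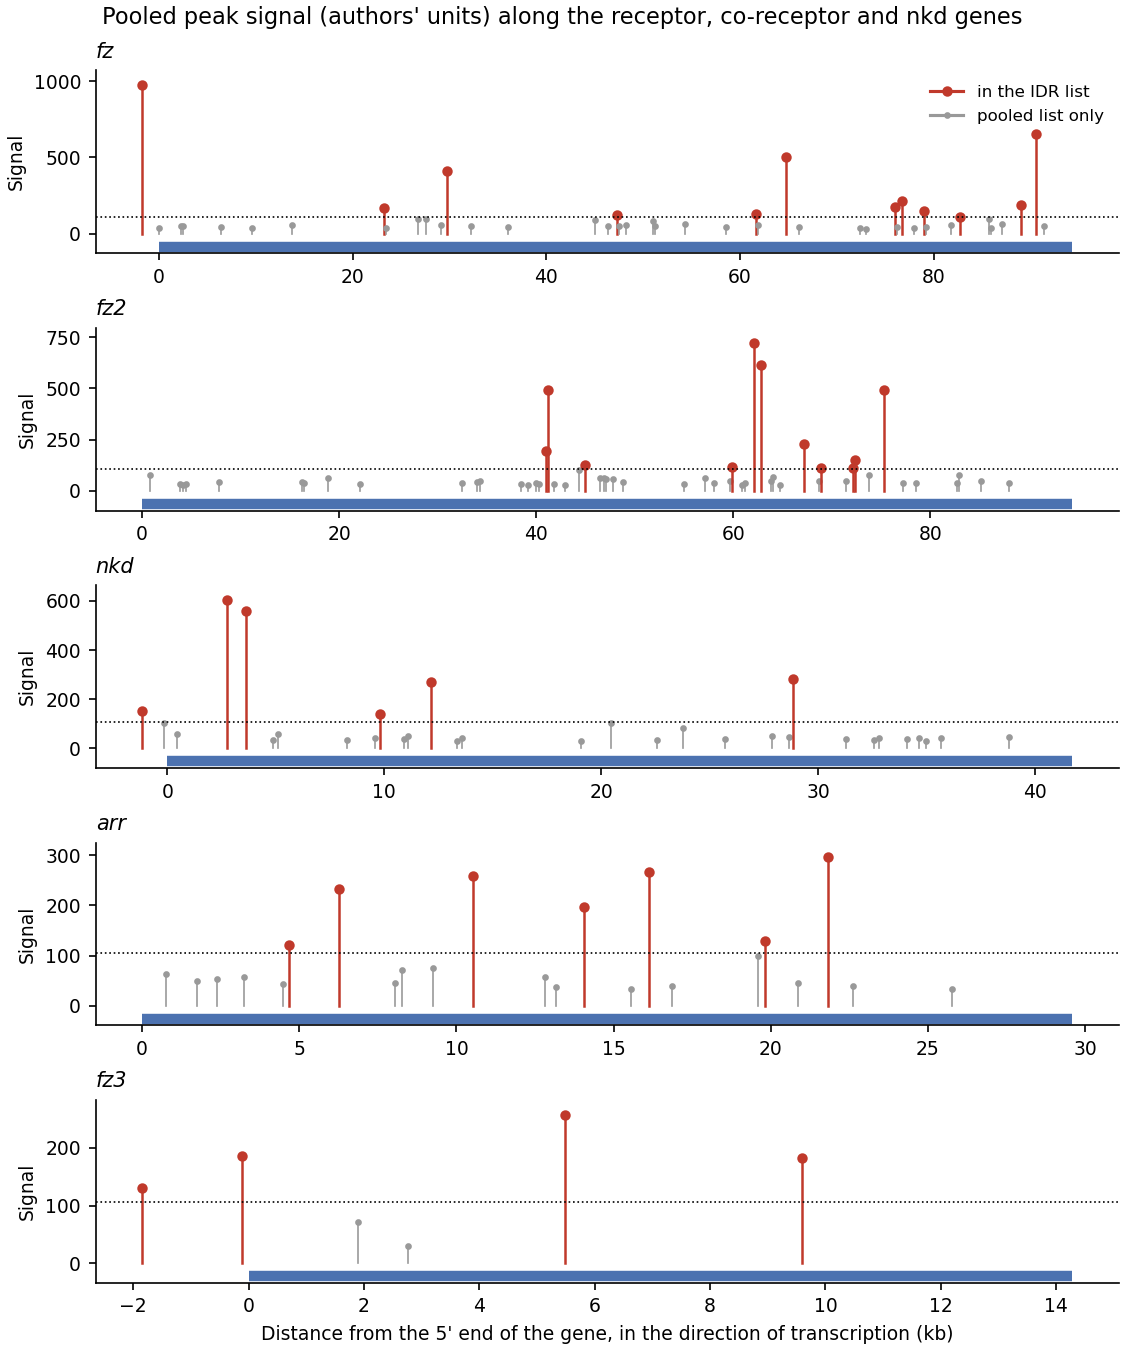
Pooled peak signal (authors' units, a separate scale for each gene) against distance from the 5' end of fz, fz2, nkd, arr and fz3 in the direction of transcription (kb). Red lines are IDR peaks, grey lines are regions in the pooled list only, the dotted line is the lowest IDR signal of 106.0 and bars are gene bodies. The tallest fz peak lies upstream of the gene, the tallest nkd pair lies within 4 kb of the 5' end, and fz2 has no IDR peak in its first 40 kb.

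The co-receptor gene arr had 7 summits, all of them within its second intron. The gene (FBgn0000119, 2R, 13453640 to 13483229, minus strand) is 29.6 kb long. The signals were closer to each other than those of fz, fz2 or nkd. The summit 21829 bp from the TSS had the highest, 296 at rank 1525. Those at 16125, 10525, 6247 and 14063 bp had 266, 259, 232 and 197, and those at 19805 and 4684 bp had 129.9 and 121. The strongest ranked 1397 in replicate 2, with a signal of 139, and 1598 in replicate 3, with a signal of 165. None of the 7 was among the 1000 strongest IDR peaks.

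None of the arr summits had the arr TSS as its nearest start site. The small gene CG43192 (2R, 13477342 to 13478079, plus strand) lies inside the same intron and its TSS was nearest to 5 of them. The summit with a signal of 232 lay 360 bp upstream of that TSS and so was also a promoter summit of CG43192. The TSS of Golgin97 (2R, 13450586 to 13453393, plus strand), which encodes a Golgi protein, was nearest to the other 2. By the gene body alone all 7 belong to arr, and by the nearest TSS within 10 kb alone none does.

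nkd had 6 summits, and the strongest were close together near its 5' end. It encodes naked cuticle, an antagonist of Wnt signalling that is itself induced by the pathway. The gene (FBgn0002945, 3L, 19003741 to 19045449, minus strand) is 41.7 kb long. The peak at 19042502 to 19042848 had a signal of 604 at rank 463, with its summit in the first intron 2761 bp from the TSS. It ranked 528 in replicate 2 (signal 245) and 407 in replicate 3 (signal 367). The next peak, at 19041643 to 19041833, had a signal of 558 at rank 536, and its summit was 3630 bp from the TSS. Replicate 3 had its summit within 34 bp of this one, at rank 601. The nearest replicate 2 summit, at rank 452, was 102 bp away and so missed the 100 bp limit by 2 bp.

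The other nkd peaks were weaker. The first intron held summits 28848, 12152 and 9779 bp from the TSS with signals of 282, 270.9 and 141. The sixth lay 1160 bp upstream of the TSS with a signal of 152, and ranked 5648 in replicate 2 and 3050 in replicate 3. The TSS of SmydA-2 (3L, 19000985 to 19003252, minus strand) was nearer to the one at 28848 bp. A promoter region of nkd, 146 bp upstream of its TSS, just missed the IDR list. Its pooled signal was 103.6, at pooled rank 5460. Within 100 bp it had a summit in replicate 3 (signal 93.4, rank 3310) but none in replicate 2.

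pan had no summit in any of the 4 lists. The gene (FBgn0085432) is 44.9 kb long and lies on chromosome 4 from 69326 to 114270 on the plus strand. Regions of any kind were few on that chromosome. It held 5 of the IDR peaks, or 0.0939%, and 44 of the pooled regions, or 0.151%, on 0.98% of the length of the chromosome arms. The nearest IDR summit to the body of pan was 290254 bp away and the nearest pooled summit 262975 bp. In the single libraries the distances were 67022 bp in replicate 2 and 2041 bp in replicate 3. Of 80 protein-coding genes on chromosome 4, 3 had an IDR summit. Whether the absence at pan has to do with the gene or with the chromosome was not tested.

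In the other 3 lists, 9 of the 10 genes had a summit, all but pan. The share of all protein-coding genes was 56.5% in the pooled list, 61.8% in replicate 2 and 54.0% in replicate 3. The genes had 188 pooled regions, of which 43 (22.9%) were IDR peaks, against 18.2% of all pooled regions. The number of pooled regions was 53 in fz2, 44 in fz, 31 in nkd, 23 in arr, 11 in Wnt4, 10 in Wnt10, 7 in Wnt6, 6 in fz3 and 3 in wg. At the end of the IDR list, the last peak inside was that of fz with 107 and the first region outside was that of nkd with 103.6.

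Gene length bears on these counts, since a longer body can hold more summits. The 10 gene bodies held 37 IDR summits in 383057 bp, or 0.966 for each 10 kb, and all protein-coding gene bodies together had 0.363. The 10 genes were chosen with earlier results of these data known, so these values are a description. Of the 99 genes as long as fz or longer, 9 had as many summits, and their median was 2. Of the 98 as long as fz2 or longer, 12 had as many. For arr the number was 87 of 680, for nkd 80 of 435 and for fz3 274 of 1434. Counts of 12 or more were reached by 19 of all protein-coding genes. The counts of fz, fz2 and arr were high for their length but were reached by other genes of such length too. The body of arr held 2.37 summits for each 10 kb, against 1.17 in fz and in fz2. The counts of nkd and fz3 exceeded the medians of genes as long or longer, which were 2 and 1. Those of wg, Wnt6 and Wnt10 were ordinary.

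**Figure D4:**
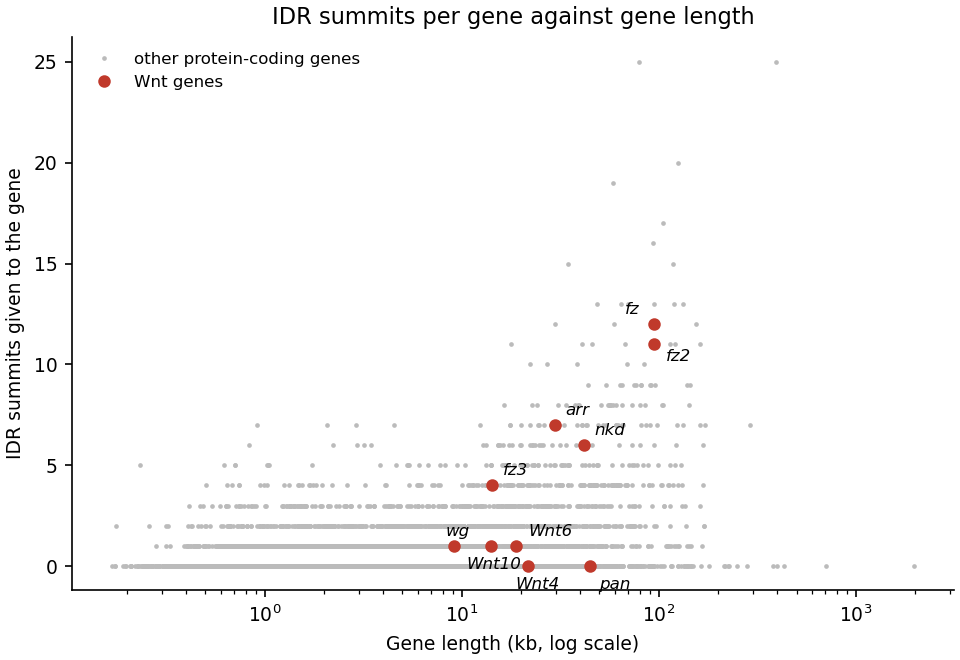
Number of IDR summits given to each of 13968 protein-coding genes against gene length (kb, log scale). The 10 Wnt genes are in red and named, with fz at 12 and fz2 at 11 among the higher counts of long genes, and Wnt4 and pan at 0.

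The summits of the Wnt genes lay mainly in introns. Of the 43, 36 (83.7%) were in introns, against 46.1% of all IDR summits. Intergenic sequence held 4 (9.30%, against 19.5%) and promoters, within 500 bp of any TSS, held 3 (6.98%, against 32.5%). None was in a coding exon or UTR. The median distance to the nearest protein-coding TSS was 6636 bp, against 1928 bp over all IDR summits. More than 10 kb from any such TSS were 15 of them (34.9%, against 16.2%). The rule takes every summit in a gene body and so shapes these shares, which are given as a description.

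Signal over the 43 summits was about that of the list as a whole. The median was 197 against 193, and the range ran from 107 to 974 within a list range of 106.0 to 2996. Of the 1000 strongest IDR peaks 11 were theirs (25.6% of the 43, against 18.8% of all). These were 4 of fz, 4 of fz2, 2 of nkd and the 1 of Wnt10. The deposited −log10 q value was at its highest, 3.93, in 35 of the 43 (81.4%, against 80.8% of all), so it did not order them. Peaks of the usual width of 424 bp numbered 29 and had signals up to 296. The 14 others, 132 to 375 bp wide, had signals from 257 upwards.

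Replicate agreement was counted by the place of the summit. Of the 43 summits, 36 (83.7%) had a summit within 100 bp in both replicates, against 92.7% of all IDR summits. In replicate 2 a match was found for 39, against 5105 of all 5327, and in replicate 3 for 40, against 5143. The 7 without a match in both belonged to fz2 (3), nkd (2), fz (1) and arr (1), and had signals from 115.3 to 558. For each of them the nearest summit of the lacking replicate was 102 to 159 bp away, so that both libraries held a region close by. That region was not always their own. For the arr summit it was also the match of a weaker pooled region of arr. For the fz2 summits of overlapping pairs it was the match of the partner. Within 250 bp all 43 were matched, but 1 replicate summit could then serve more than 1 IDR summit, as in the overlapping fz2 pairs. The share of all IDR summits matched within 250 bp is not given here, so this count has nothing to be set against. Whether the share at 100 bp differs from that of other peaks was not tested.

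The ranks of the matched summits were also set side by side. Over the 36 the Spearman correlation of their ranks was 0.892, given as a description, since summits of 1 gene share the libraries and the locus. The IDR list holds the regions with the highest signal in these same replicates pooled, and the 36 had to match in both. Some agreement in rank is therefore built in. The ranks ran from 196 to 14551 in replicate 2 and from 101 to 6275 in replicate 3. Both replicates placed 28 of the 36 among their 5327 strongest regions, and the same count over all matched IDR summits is not given here. The median rank of the summits matched in replicate 2 was 2671, against 2623 over all IDR summits matched there. In replicate 3 it was 2194, against 2613. The lowest rank, 14551 in replicate 2, belonged to an fz2 summit of an overlapping pair, which ranked 3703 in replicate 3.

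**Figure D5:**
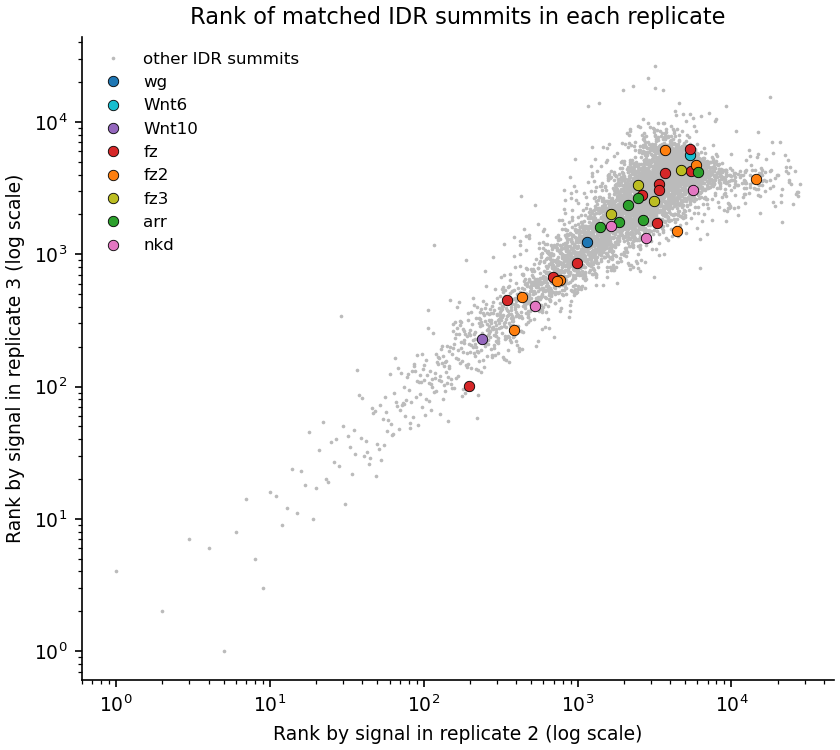
Rank by signal in replicate 2 against rank by signal in replicate 3 (both log scales) for IDR summits matched within 100 bp in both, with 36 summits of the Wnt genes coloured by gene and all others in grey. The coloured points follow the diagonal of the grey ones from the fz peak at ranks 196 and 101 downwards, with the fz2 summit at ranks 14551 and 3703 farthest off it.

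The base composition at the summits was that of the list. The GC content of the 101 bp windows averaged 32.5% ± 8.35 (SD, 43 windows), against 33.4% ± 8.40 over all 5327. The forkhead core GTAAACA was in 1 window (2.33%, against 2.22% of all), the first intron summit of fz with a signal of 167. ATAAACA was in 1 (2.33%, against 4.66%), the nkd summit with a signal of 141. Neither of these was among the strong peaks of its gene. The homeodomain site TAATTA was in 4 windows (9.30%, against 9.89%), including those of wg and of the nkd peak of 558.

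The GATA factor sites AGATAA and TGATAA were in 5 and 4 windows (11.6% and 9.30%, against 8.13% and 9.31%). They included both strongest peaks of fz, shown above. The TCF site CTTTGA, bound by the product of pan, was in 3 windows (6.98%, against 6.59%), and these were 1 each in fz2, arr and nkd. Of the 43 windows, 27 (62.8%) held none of the 6 motifs, against 66.5% of all. Motifs were searched on both strands, and a match is a description of the letters, not a site.

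Other genes of the Wnt pathway gave a wider view. A list of 35 was taken for comparison, and 15 of them had an IDR summit, 47 summits in all. By role these were 2 of 5 ligand and secretion genes, 3 of 7 receptor genes and 3 of 4 extracellular genes. There were also 3 of 10 cytoplasmic genes, 3 of 6 nuclear cofactor genes and 1 of 3 target genes. The pooled list had a summit in 27. The share of 15 in 35 lies between the 20.7% of all genes and the count of the 10. The 35 genes were 1.15 to 63.7 kb long, and their share is not set beside genes of like length. Whether this order follows gene length was not tested.

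The strongest were at the kinase genes gish and sgg. The peak of gish, a casein kinase of the gamma type, was at its promoter, 168 bp upstream of the TSS, with a signal of 1265 at rank 61. The peak of sgg, the GSK3 kinase that marks armadillo for destruction, lay 178 bp upstream of a TSS with a signal of 891 at rank 169. These exceeded every peak of the 10 genes except, for sgg, the upstream peak of fz. The glypican genes dlp and dally, whose products bind Wnt ligands at the cell surface, had 8 and 9 summits. Their strongest had signals of 705, in an intron of dlp, and 689, at 5654 bp upstream of dally. The summit in dlp lay 20150 bp from the dlp TSS, and the TSS of CG43121 was nearer to it. The corepressor gene gro had 1, at its promoter 130 bp upstream of the TSS, with a signal of 687. Of the 15 genes, 5 had their strongest peak at a promoter and 10 had it in an intron or between genes. Among the 8 genes with a summit of the 10 examined, Wnt6 had its strongest peak at a promoter, and those of wg, Wnt10, fz, fz2, fz3, arr and nkd lay in introns or intergenic sequence.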

How the data were processed

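ChIP-seq of eGFP-tagged fd59A was analysed in 2 samples of 1 group, taken as replicates 2 and 3 from the labels. Per the labels, chromatin was sonicated to 200 to 800 bp. Per the file descriptions, the authors called peaks and background regions in each replicate and on pooled alignments against a control, and derived the IDR list from these. The deposited signal value and −log10 q value of each peak were used as given. Which caller was used, and with what IDR threshold and scaling, is not given in the sources used. The lists hold no read totals, so depth is unknown and no interval on read counts can be given.

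Genes and start sites came from Ensembl release 115 on dm6, the build of the files used. The dm3 lists were not used here. Summits were the peak start plus the deposited offset. A replicate match needed a summit within 100 bp. With 1 group there was no test. The members and the gene lists were chosen with earlier results of these data known. The text names all 10 genes with every IDR summit, the 5 other pathway genes with the strongest summit, and genes whose body or nearer TSS a summit shared. Code was tested on simulated data. Alternatives varied the gene rule, distance limit, number of peaks and matching, and replaced the IDR list by the strongest regions of 1 replicate, leaving out the other. Analyses used Python 3.11.15, numpy 2.4.6, pandas 2.3.3, scipy 1.17.1 and matplotlib 3.10.9.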

Additional observations from a re-analysis of the deposited data

How the results depend on the processing

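The main values were 8 genes with an IDR summit, 43 summits, 36 matched, a median signal of 197 and 20.7% of all protein-coding genes. Other gene rules, the 5 kb limit and fewer peaks each moved at least 1 of them. Leaving out a replicate, a 15 kb limit and other ways of matching moved none of them. A count was called moved beyond 1.5 times, but the share of all genes already when outside 20.06% to 21.41%. With the nearest TSS within 10 kb alone there were 7 genes, 19 summits, 15 matched, and 19.0% of all genes. With the gene body alone there were 6 genes and 11.4% of all genes. With the TSS of all annotated genes there were 8 genes and 19.6%, and with a 5 kb limit 7 genes and 19.5%. With the 2663 strongest IDR peaks there were 7 genes, 23 summits, 21 matched, a median of 353 and 12.6% of all genes. With the 1000 strongest there were 4 genes, 11 summits, 10 matched, a median of 604, 5.96% of all genes and 7 other pathway genes in place of 15. Without replicate 2 or replicate 3 there were 7 genes both times, since Wnt6 had no summit, with 40 to 42 summits, 20.1% to 21.1% of all genes and 16 other pathway genes. The matched count and the median have no value there. A 15 kb limit, added after the data were seen, gave 9 genes and 51 summits, 44 of them matched. Other ways of matching gave 28 to 43 matched summits. Counts of single genes stayed within 1.5 times in 67 of 90 alternatives and moved in 23. The 67 include all alternatives for pan and all but the 15 kb limit for Wnt4, where a count of 0 stayed 0.

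Peak lists without read counts limit what can be said of weak regions, and 2 replicates of 1 line give no measure of variation between lines. No paired analysis was possible because there is only 1 group.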
